A study of Arabidopsis thaliana with 54 samples.

Results

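The 10 genes described here belong to indole glucosinolate modification in roots of *Arabidopsis thaliana*. They were the methyltransferases *IGMT1*, *IGMT2*, *IGMT3* and *IGMT4*, the hydroxylases *CYP81F1*, *CYP81F2*, *CYP81F3* and *CYP81F4*, the atypical myrosinase *PEN2* and the transporter *PEN3*. The 10 genes were picked by their AGI identifiers out of 34262 genes counted, and all 10 reached at least 1 CPM (counts scaled to the size of the library) in 54 of 54 libraries. The set was proposed after *IGMT2*, *IGMT4* and *CYP81F2* had been seen among the few genes that responded to the peptide in *sgn3* at 30 min, so the *sgn3* values at 30 min are given below as a description without a test.

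Whole roots of wild type (Col), of the *cif1-2 cif2-2* double mutant (*cif1 cif2*) and of *sgn3-3* (*sgn3*) were collected from 5-day-old seedlings. Seedlings had been moved to fresh half-strength MS medium and kept there for 30, 120 or 480 min, either with 100 nM CIF2 in the medium or with no peptide. CIF2 is a sulfated peptide made in the stele, SGN3 is its receptor kinase on endodermal cells, and *cif1 cif2* carries 1-base insertions in both ligand genes. Untreated seedlings had been transferred as well. Both mutants are single lines in the Col background, and all cell types of the root were in each library. Each of the 18 groups held 3 libraries, 1 from each of 3 batches named in the labels. For 3 *cif1 cif2* libraries the title gave CIF2 for 480 min and the treatment label gave no peptide; they were grouped by title, and every *cif1 cif2* value with CIF2 at 480 min rests on that.

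Indole glucosinolates are tryptophan-derived thioglucosides that are stored in the plant and activated on attack. CYP81F monooxygenases hydroxylate the indole ring of indol-3-ylmethyl glucosinolate, and IGMT enzymes then methylate the hydroxyl group to give methoxy derivatives. CYP81F2 is an enzyme for the ring position that yields 4-methoxyindol-3-ylmethyl glucosinolate, the form that PEN2 hydrolyses in the defence against fungi. CYP81F4 serves the position that yields 1-methoxyindol-3-ylmethyl glucosinolate, which is abundant in roots. PEN3 is an ABC transporter of the plasma membrane that acts with PEN2 in preinvasion defence.

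The 4 *IGMT* genes stood in tandem on the minus strand of chromosome 1, in the order *IGMT1*, *IGMT3*, *IGMT2*, *IGMT4*, with no other annotated gene between neighbours and gaps of 1468, 3575 and 1990 bases. They were AT1G21100 (7386762 to 7388512), AT1G21110 (7389981 to 7391603), AT1G21120 (7395179 to 7396823) and AT1G21130 (7398814 to 7400736). *CYP81F3* (AT4G37400), *CYP81F4* (AT4G37410) and *CYP81F1* (AT4G37430) lay on the plus strand of chromosome 4 at 17583992 to 17586442, 17590772 to 17592920 and 17597110 to 17598958. *CYP81F2* (AT5G57220) was apart from them on chromosome 5 (23187840 to 23189902, plus strand), *PEN2* (AT2G44490) was on chromosome 2 (18364652 to 18367835, plus strand) and *PEN3* (AT1G59870) on chromosome 1 (22034423 to 22040126, plus strand). All coordinates and sequences are from RefSeq on TAIR10.1, whose nuclear chromosomes are those of TAIR10. Because paralogs can share reads, the coding sequences of the *IGMT* genes, each of 1122 bases, were compared. *IGMT2* and *IGMT3* were the closest pair, with 97.4% identity and a longest common run of 263 bases, and the other pairs had 92.5% to 93.4%. The coding stretch with the most variable positions, bases 289 to 348, is shown because it carries bases by which reads of the 4 genes can be told apart. Capitals mark bases that differ from *IGMT1*.
*IGMT1*, chr1:7387971-7388030, minus strand: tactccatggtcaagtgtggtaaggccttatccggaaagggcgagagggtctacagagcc
*IGMT2*, chr1:7396293-7396352, minus strand: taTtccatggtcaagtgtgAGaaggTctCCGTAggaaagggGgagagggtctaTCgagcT
*IGMT3*, chr1:7391072-7391131, minus strand: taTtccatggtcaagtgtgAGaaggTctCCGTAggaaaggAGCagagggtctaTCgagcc
*IGMT4*, chr1:7400123-7400182, minus strand: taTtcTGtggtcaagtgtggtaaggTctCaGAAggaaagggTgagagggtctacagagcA

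In this stretch *IGMT2*, *IGMT3* and *IGMT4* differed from *IGMT1* at 13, 14 and 10 of 60 bases. Of all 100-base windows of the transcripts, 21.5% in *IGMT2* and 22.1% in *IGMT3* had an exact second match in the genome, against 3.46% in *IGMT1* and 3.89% in *IGMT4*, and for 50-base windows the shares were 33.2%, 42.6%, 12.1% and 10%. No 100-base window of the 4 *CYP81F* genes, *PEN2* or *PEN3* had one. Reads from the shared windows could not be assigned to 1 gene, and reads aligned to more than 1 place were 3.61% to 3.96% of the counted and uncounted reads of a library. The values of *IGMT2* and *IGMT3* therefore rest on the remaining positions.

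The 250 bases before the annotated starts of *IGMT2* and *IGMT3* were related as well, with 84.5% identity over the alignment and a common run of 51 bases, against 45.6% to 50.9% for the other *IGMT* pairs. Both promoters are shown since the pair differed in response, together with those of *CYP81F2*, which rose, and *CYP81F3*, which passed no test of CIF2 that was run. Capitals mark TTGAC, the core of the W-box bound by WRKY factors, or its reverse complement GTCAA.
*IGMT2* promoter, chr1:7396824-7397073, minus strand: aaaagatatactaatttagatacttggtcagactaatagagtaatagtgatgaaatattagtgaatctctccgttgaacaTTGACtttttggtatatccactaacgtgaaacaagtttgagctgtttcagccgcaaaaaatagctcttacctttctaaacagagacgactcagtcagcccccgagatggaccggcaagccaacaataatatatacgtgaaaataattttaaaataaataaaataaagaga
*IGMT3* promoter, chr1:7391604-7391853, minus strand: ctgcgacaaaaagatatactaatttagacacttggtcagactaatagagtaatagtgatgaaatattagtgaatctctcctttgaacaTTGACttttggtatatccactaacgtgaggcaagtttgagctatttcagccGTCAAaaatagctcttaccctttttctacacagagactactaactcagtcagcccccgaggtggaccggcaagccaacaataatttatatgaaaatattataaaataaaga
*CYP81F2* promoter, chr5:23187590-23187839, plus strand: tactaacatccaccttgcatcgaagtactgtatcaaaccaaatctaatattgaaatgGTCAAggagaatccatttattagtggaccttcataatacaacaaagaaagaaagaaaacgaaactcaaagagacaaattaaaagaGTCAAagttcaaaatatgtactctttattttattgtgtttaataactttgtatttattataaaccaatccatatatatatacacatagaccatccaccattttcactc
*CYP81F3* promoter, chr4:17583742-17583991, plus strand: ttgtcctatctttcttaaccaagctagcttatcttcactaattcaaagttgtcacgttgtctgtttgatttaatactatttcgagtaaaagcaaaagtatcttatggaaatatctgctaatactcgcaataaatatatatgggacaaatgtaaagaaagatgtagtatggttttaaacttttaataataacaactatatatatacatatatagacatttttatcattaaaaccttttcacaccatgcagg

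TTGAC occurred on either strand at 1 place before *IGMT1*, *IGMT2*, *IGMT4*, *CYP81F4*, *PEN2* and *PEN3*, at 2 places before *IGMT3* and *CYP81F2*, and at none before *CYP81F1* and *CYP81F3*. Of 27443 promoters of protein-coding genes, 44.9% held at least 1 and 14.1% at least 2, so that a single match was common. The match lay 170 bases before the start of *IGMT2*, 162 and 111 bases before that of *IGMT3*, and 193 and 108 bases before that of *CYP81F2*. The GCC-box GCCGCC and the G-box CACGTG, searched on both strands and found in 1.87% and 6.49% of all promoters, were in none of the 10. A match to these letters is a description of the sequence and was not tested as a binding site.

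Libraries held 21328819 to 38588050 counts in genes (median 28866174). *SGN3* transcripts stood at 20.2 to 46.8 CPM in the 18 *sgn3* libraries and at 110 to 290 CPM in the 18 wild-type libraries. Marker genes of the endodermis summed to 300 to 922 CPM over all libraries and those of leaf and shoot to 4.08 to 24.9 CPM. With CIF2 for 480 min the endodermis sum was 490 to 591 CPM in wild type against 364 to 442 CPM without peptide, and the leaf and shoot sum was 5.34 to 7.41 CPM against 13.3 to 15.8 CPM. At 480 min 4 of 5 endodermis markers rose and 1 fell, 1 of 3 leaf and shoot markers fell, and none of 3 markers of root hair and epidermis or of 3 of the stele passed the test in wild type. In *cif1 cif2* the endodermis sum was 836 to 922 CPM with CIF2 against 316 to 463 CPM without at 120 min and 546 to 731 CPM against 344 to 413 CPM at 480 min, with 4 of 5 markers up and 1 down each time, and its leaf and shoot sum at 480 min was 4.08 to 7.21 CPM against 8.74 to 15.1 CPM. In *sgn3* at 480 min the endodermis sum was 304 to 369 CPM with CIF2 against 300 to 406 CPM without. The part of these shifts in the results below was not tested, and in whole roots a change in the number of expressing cells and a change per cell cannot be told apart.

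Untreated roots held very unequal levels of the 10 transcripts. Per kilobase of transcript in wild type at 30 min, *CYP81F4* was the highest at 779 ± 179 CPM per kb (SD, n = 3), followed by *PEN3* (273 ± 54.2), *IGMT3* (170 ± 14.8), *PEN2* (132 ± 3.85) and *IGMT1* (116 ± 44.9). *IGMT2* (26.97 ± 4.02), *IGMT4* (17.6 ± 3.49), *CYP81F3* (16.9 ± 3.501), *CYP81F1* (7.90 ± 1.12) and *CYP81F2* (3.04 ± 1.06) were lower. The 3 libraries of *IGMT1* overlapped with those of *PEN2* and *IGMT3*, and those of *IGMT4* with those of *CYP81F3*. Among the hydroxylases *CYP81F4* took 95.5% to 97.3% of the summed *CYP81F* counts in these libraries, and among the methyltransferases *IGMT3* took 45.1% to 55.4% and *IGMT1* 29.3% to 43.6% of the *IGMT* counts. Levels per kilobase used the full transcript length, shared windows included. Levels and shares of *IGMT2* and *IGMT3*, here and below, may therefore be too low beside those of the other genes.

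*CYP81F2*, the hydroxylase with the lowest level per kilobase without peptide at 30 min, had the largest rise of the 10 genes after 30 min of CIF2. In wild type it stood at 6.94, 5.88 and 3.31 CPM without peptide and at 32.2, 47.5 and 30.1 CPM with CIF2 in batches 1, 2 and 3, so that the groups were far apart. The log2 fold change was 2.80 ± 0.29 (SE; adjusted p = 1.05e-09 by edgeR's quasi-likelihood test, higher in 3 of 3 batches). At 120 min the untreated libraries had 13.3, 15.9 and 8.83 CPM and the treated ones 65.4, 42.9 and 43.0 CPM, a log2 fold change of 2.02 ± 0.25 (adjusted p = 1.11e-07). At 480 min both levels were lower, at 5.82, 6.34 and 3.83 CPM without and 24.6, 19.2 and 20.5 CPM with CIF2, and the log2 fold change was 2.06 ± 0.29 (adjusted p = 7.25e-07). Batch 3 was the lowest of the untreated libraries at each time. In *cif1 cif2* the rise was of similar size, 3.11 ± 0.28, 2.03 ± 0.25 and 1.99 ± 0.29 on the log2 scale, and its difference from the wild-type rise was 0.31 ± 0.41 at 30 min (adjusted p = 0.911).

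**Figure D1:**
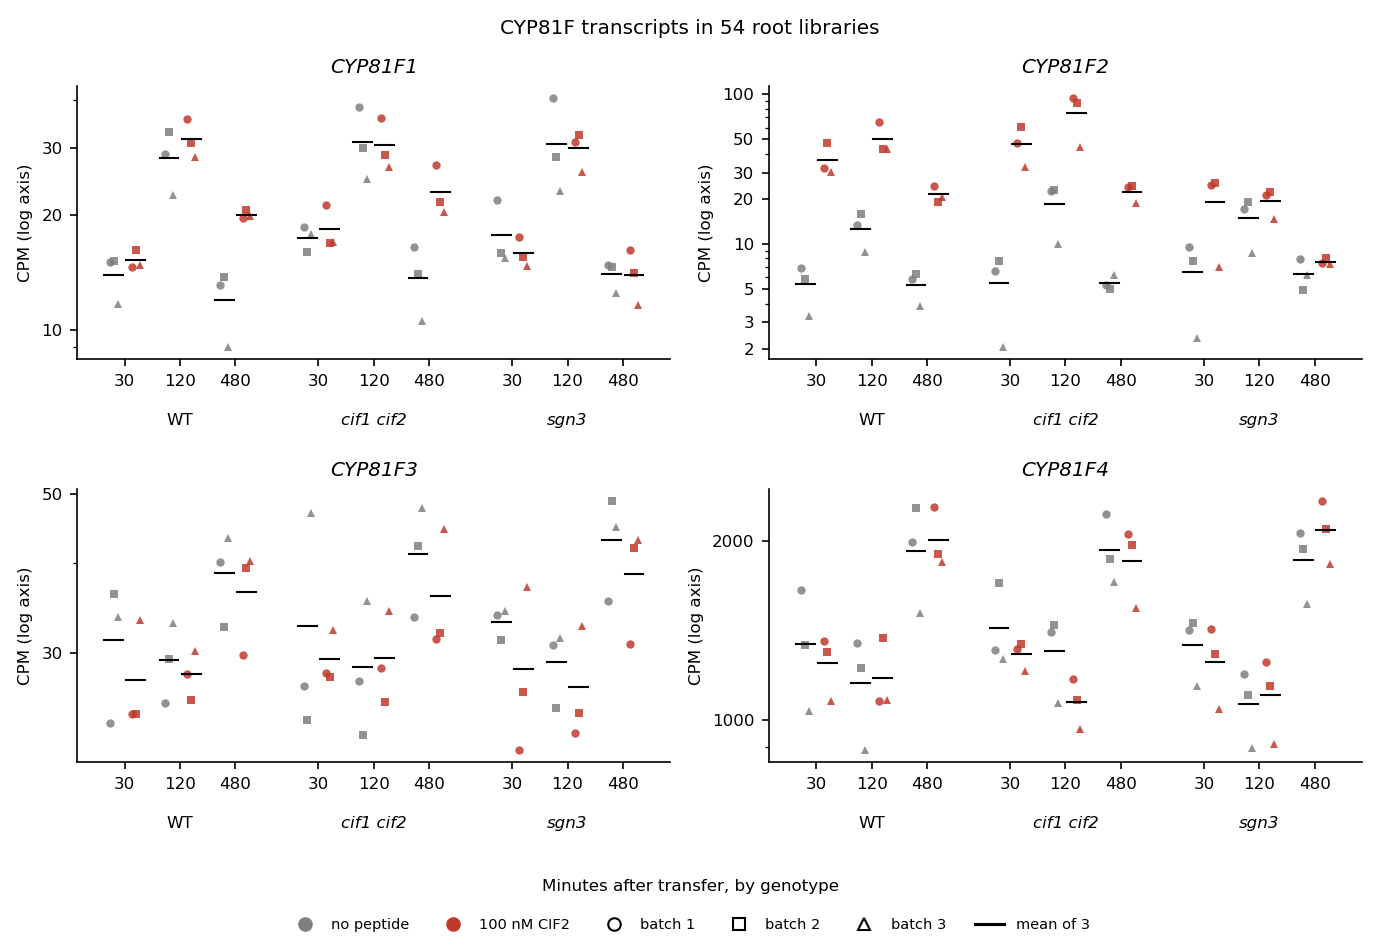
Levels of the 4 *CYP81F* transcripts in CPM (log axis) in each of the 54 libraries, by genotype and minutes after transfer, without peptide (gray) and with CIF2 (red); marker shapes give the batch and bars the mean of 3 libraries. *CYP81F2* with CIF2 lay above its untreated libraries at all times in wild type and *cif1 cif2*, *CYP81F1* at 480 min only, while *CYP81F3* and *CYP81F4* overlapped with their untreated libraries in wild type.

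The other hydroxylases had smaller changes or none that passed the test. *CYP81F1* did not pass the test at 30 or 120 min in either genotype but rose at 480 min. In wild type it then stood at 13.1, 13.8 and 9.01 CPM without and at 19.6, 20.6 and 19.8 CPM with CIF2, with no overlap and a log2 fold change of 0.77 ± 0.12 (adjusted p = 5.90e-06). In *cif1 cif2* the rise was 0.76 ± 0.12 (adjusted p = 4.87e-06). *CYP81F3* passed the test in none of the 8 comparisons of CIF2 with no peptide that were tested, and its log2 fold changes lay between -0.20 and 0.05 in them. *CYP81F4*, the main hydroxylase transcript, stood at 1653, 1335 and 1035 CPM without and 1359, 1303 and 1078 CPM with CIF2 in wild type at 30 min, a log2 fold change of -0.09 ± 0.09 (adjusted p = 0.665). Its only passing value was a log2 fold change of -0.27 ± 0.09 in *cif1 cif2* at 120 min (adjusted p = 0.0416), where the treated libraries had 1171, 1081 and 966 CPM and the untreated ones 1408, 1442 and 1066 CPM and the groups overlapped. Without batch 1, 2 or 3 it did not pass (-0.28, -0.21 and -0.35, adjusted p = 0.0597, 0.348 and 0.0789). The counts of *CYP81F1* and *CYP81F4* have a limit: each overlaps an annotated gene on the opposite strand, AT4G37432 and AT4G37409, and the strand setting of the counting is not given in the sources used here. AT4G37409 held 38 to 198 counts per library against 20067 to 80175 for *CYP81F4*, and AT4G37432 held 161 to 311 against 254 to 1111 for *CYP81F1*.

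All 4 methyltransferase transcripts rose at 30 min in wild type and in *cif1 cif2*, by different amounts. *IGMT2* stood at 32.7, 44.0 and 37.2 CPM without peptide and at 152.6, 217.9 and 199.6 CPM with CIF2 in wild type, a log2 fold change of 2.32 ± 0.18 (adjusted p = 1.38e-12). At 120 min it stood at 32.3, 38.2 and 29.7 CPM without and 201.5, 165.2 and 178.2 CPM with CIF2 (2.45 ± 0.18, adjusted p = 1.99e-13). At 480 min the level without peptide was 13.4, 12.6 and 14.2 CPM and that with CIF2 96.2, 93.6 and 109.5 CPM, the largest log2 fold change of the 10 genes in wild type at that time at 2.90 ± 0.20 (adjusted p = 4.10e-15). Treated and untreated libraries of *IGMT2* did not overlap at any time in wild type. The rise in *cif1 cif2* was 2.73 ± 0.19, 2.68 ± 0.18 and 2.69 ± 0.19 on the log2 scale, in order of time.

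*IGMT3*, the close paralog of *IGMT2*, had a smaller rise, least at 120 min. In wild type at 30 min it went from 262.6, 246.5 and 220.5 CPM to 607.9, 721.7 and 584.2 CPM, a log2 fold change of 1.39 ± 0.13 (adjusted p = 8.27e-11). At 120 min it stood at 385.8, 345.6 and 275.2 CPM without and 482.5, 450.2 and 477.2 CPM with CIF2, and the log2 fold change was 0.50 ± 0.13 (adjusted p = 0.00575). The fall of the response between the times was itself tested and was -0.89 ± 0.18 on the log2 scale (adjusted p = 0.00237), against 0.13 ± 0.25 for *IGMT2* (adjusted p = 0.896). At 480 min *IGMT3* was again higher with CIF2, by 0.88 ± 0.13 (adjusted p = 1.43e-06), with libraries of 160.0, 160.8 and 162.5 CPM against 298.1, 267.8 and 317.7 CPM. As a share of the summed *IGMT* counts at 480 min, *IGMT2* went from 5.02% to 5.77% without peptide to 16.4% to 19.4% with CIF2 and *IGMT3* from 62.0% to 66.1% to 50.7% to 55.7%.

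*IGMT4*, the lowest of the 4 per kilobase at 480 min without peptide, rose at all 3 times. It stood at 33.3, 35.2 and 23.8 CPM without and 109.5, 153.0 and 117.3 CPM with CIF2 in wild type at 30 min (log2 fold change 2.07 ± 0.25, adjusted p = 3.34e-08). At 120 min the log2 fold change was 1.44 ± 0.26 (adjusted p = 8.18e-05), and at 480 min 3.30, 3.29 and 3.58 CPM without peptide stood against 27.01, 22.0 and 19.2 CPM with CIF2 (2.74 ± 0.32, adjusted p = 1.03e-08). *IGMT1* stood at 253.6, 166.0 and 116.6 CPM without and 414.5, 441.6 and 319.6 CPM with CIF2 at 30 min, where the log2 fold change was 1.17 ± 0.23 (adjusted p = 0.000425). At 120 min its untreated libraries reached 202.9 CPM and overlapped with the treated ones, which went down to 185.2 CPM, and the difference did not pass the test (0.55 ± 0.23, adjusted p = 0.144). At 480 min it passed again at 0.89 ± 0.24 (adjusted p = 0.00835). With the counts of the 4 genes added into 1 feature, which still lacks the reads from shared windows, the wild-type rise on the log2 scale came to 1.46 ± 0.16, then 0.78 ± 0.16 and then 1.14 ± 0.16 (adjusted p = 7.56e-09, 0.000592 and 9.03e-07). Without batch 1 the 480 min value of *IGMT1* did not pass (0.84, adjusted p = 0.119), nor did the 120 min value of *IGMT3* without batch 3 (0.35, adjusted p = 0.0703).

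**Figure D2:**
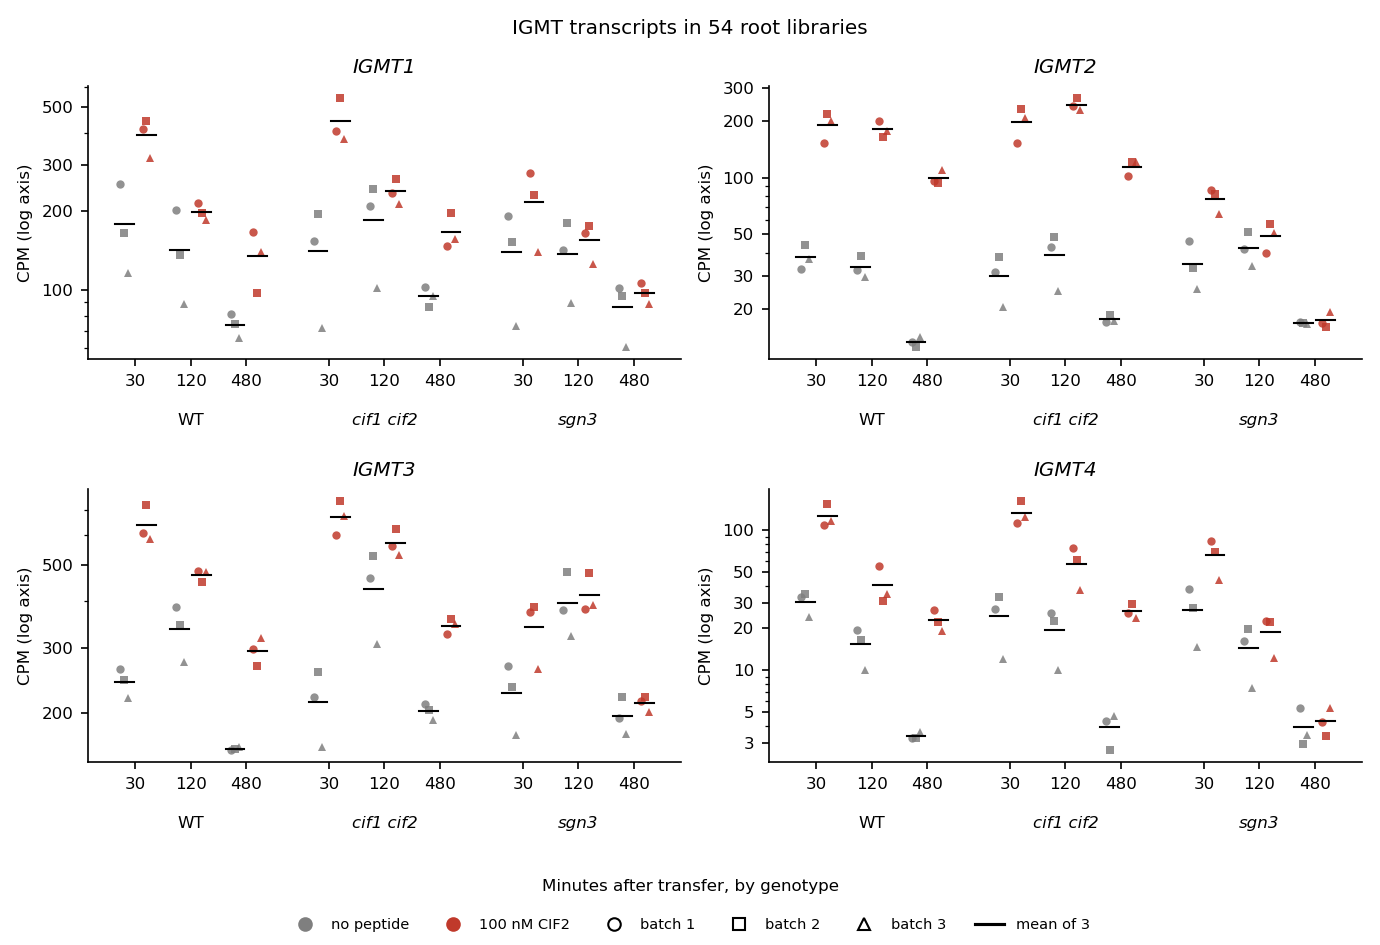
Levels of the 4 *IGMT* transcripts in CPM (log axis) in each of the 54 libraries, laid out as for the hydroxylases. With CIF2, *IGMT2* and *IGMT4* lay above all untreated libraries of the same time in wild type and *cif1 cif2*, and at 480 min in *sgn3* the treated and untreated libraries of all 4 genes lay together.

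*PEN2* and *PEN3* rose at all 3 times in wild type, with the highest estimates at 30 min. *PEN2* stood at 284.4, 299.2 and 299.2 CPM without and 554.0, 637.7 and 529.0 CPM with CIF2 in wild type (log2 fold change 0.96 ± 0.10, adjusted p = 2.06e-09). Its response had fallen by 120 min, to 0.42 ± 0.10 (adjusted p = 0.00371; test of the fall -0.54 ± 0.14, adjusted p = 0.0299), and was 0.32 ± 0.10 at 480 min (adjusted p = 0.0315), when 154.7, 161.7 and 174.0 CPM stood against 193.5, 197.3 and 222.9 CPM. *PEN3* went from 1627, 1307 and 1096 CPM to 2860, 2775 and 2145 CPM at 30 min (0.96 ± 0.15, adjusted p = 5.03e-06). At 120 min its groups overlapped, with 1416, 1090 and 923 CPM against 1825, 1413 and 1448 CPM (0.46 ± 0.14, adjusted p = 0.0300), and the 480 min rise was 0.53 ± 0.14 (adjusted p = 0.0107). In *cif1 cif2*, *PEN2* passed the test at all 3 times (1.11 ± 0.10, 0.41 ± 0.10 and 0.36 ± 0.10) and *PEN3* at 30 min only (1.29 ± 0.15, then 0.27 ± 0.14 and 0.37 ± 0.14 with adjusted p = 0.24 and 0.104). The later values were near the threshold: without batch 1, 2 or 3 the 480 min value of *PEN2* in wild type had an adjusted p of 0.184, 0.0765 and 0.0545 and the 120 min value of *PEN3* one of 0.116, 0.143 and 0.0581, with log2 fold changes of 0.34, 0.34 and 0.32 for *PEN2* and 0.51, 0.50 and 0.37 for *PEN3*. The 480 min value of *PEN3* was 0.35 without batch 3 (adjusted p = 0.0911), and the 120 min value of *PEN2* was 0.39 without batch 2 (adjusted p = 0.0515). In *cif1 cif2* the 120 min value of *PEN2* did not pass without batch 2 (0.35, adjusted p = 0.0890), nor did its 480 min value without batch 2 (0.33, adjusted p = 0.135) or batch 3 (0.30, adjusted p = 0.0575).

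**Figure D3:**
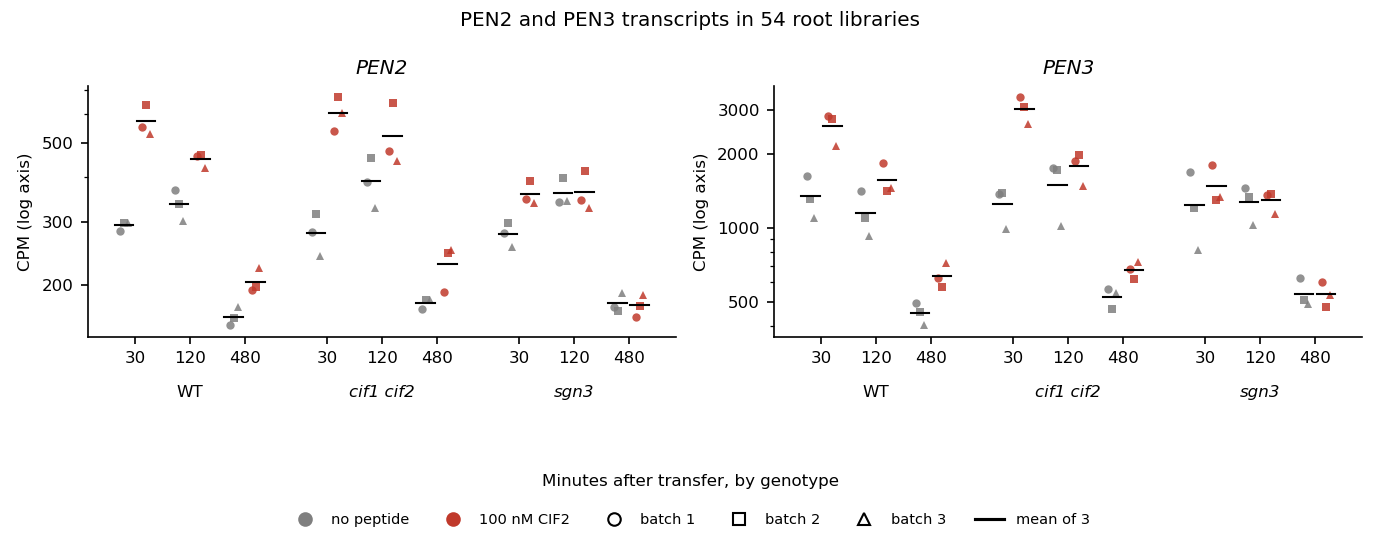
Levels of *PEN2* and *PEN3* in CPM (log axis) in each of the 54 libraries, laid out as above. Untreated levels at 480 min were below those at 30 min in all 3 genotypes, and the distance between treated and untreated libraries was widest at 30 min in wild type and *cif1 cif2*.

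Counted over the set, 7 of 10 genes were higher with CIF2 in wild type at 30 min at an adjusted p of 0.05 or less, where 5.78% of the 19668 genes tested were. They were *IGMT2*, *IGMT4* and *CYP81F2*, which had prompted the choice of the set, and *IGMT1*, *IGMT3*, *PEN2* and *PEN3*. Counts and medians of the set, here and below, therefore describe these genes and are no test of the set against all genes. At 120 min the count was 6 of 10 (6.3% of all genes) and at 480 min 8 of 10 (6.88%), and none was lower at the 3 times, where 2.01%, 4.28% and 3.23% of all genes were. With the further demand of a log2 fold change of at least 1, the counts were 5 (1.14% of all genes), 3 (1.25%) and 3 (1.93%). In *cif1 cif2* 7, 5 and 7 of 10 were higher at the 3 times (8.68%, 7.44% and 6.96% of all genes), and 7, 3 and 3 passed with the fold demand (1.81%, 1.77% and 2.12%). Of these calls, *IGMT3* at 120 min did not pass without batch 1 or 3 (0.49 and 0.25, adjusted p = 0.0767 and 0.177). *IGMT1* at 480 min did not pass without batch 1 or 2 (0.93 and 0.65, adjusted p = 0.0588 and 0.263). *CYP81F4* was the 1 gene lower, in *cif1 cif2* at 120 min, against 6.23% of all genes, and with 0 of 10 lower at 30 and 480 min the shares of all genes were 2.93% and 3.92%. The median log2 fold change of the 10 was 1.06, 0.48 and 0.82 in wild type, with medians of 0.00, 0.00 and -0.01 over all genes tested. No member differed in its CIF2 response between *cif1 cif2* and wild type by edgeR at 30, 120 or 480 min (0.0153%, 0.29% and 0.00508% of all genes did). At an unadjusted p under 0.05 the counts of the 10 were 0, 1 and 0 by edgeR, limma-trend and DESeq2 alike, and after adjustment 0 by each tool.

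**Figure D4:**
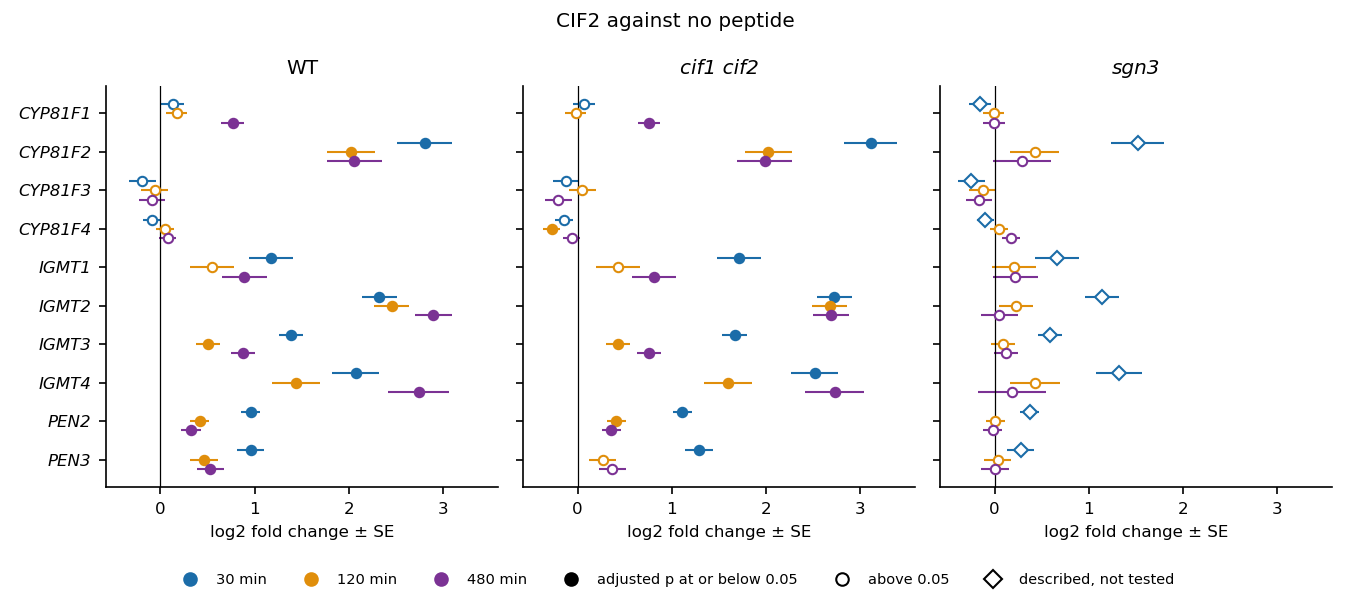
Log2 fold change of CIF2 against no peptide with its standard error for each of the 10 genes, by genotype and time; filled circles passed an adjusted p of 0.05, open circles did not, and diamonds (*sgn3* at 30 min) were not tested. *CYP81F2*, *IGMT2* and *IGMT4* stood to the right in wild type and *cif1 cif2* at all times, and in *sgn3* they stood at 1.14 to 1.52 at 30 min and at 0.05 to 0.43 later.

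In the receptor mutant the same genes were higher with CIF2 at 30 min, to a lower level. *IGMT2* stood at 45.9, 33.2 and 25.7 CPM without and at 86.0, 82.2 and 64.1 CPM with CIF2 in *sgn3*, a log2 difference of 1.14 ± 0.18, and the treated and untreated libraries did not overlap. All 3 treated *sgn3* libraries were below the lowest treated wild-type library, at 152.6 CPM. *IGMT4* stood at 38.0, 27.9 and 14.6 CPM against 84.2, 69.9 and 44.3 CPM (1.32 ± 0.25), again without overlap. For *CYP81F2*, 9.54, 7.71 and 2.37 CPM stood against 24.97, 25.7 and 7.03 CPM (1.52 ± 0.28), so that the treated library of batch 3 was below the untreated one of batch 1 while all 3 batches moved up. The genes that had not prompted the choice were *IGMT1* (log2 difference 0.66 ± 0.23), *IGMT3* (0.58 ± 0.13), *PEN2* (0.37 ± 0.10), *PEN3* (0.28 ± 0.14), *CYP81F1* (-0.15 ± 0.12), *CYP81F3* (-0.25 ± 0.14) and *CYP81F4* (-0.10 ± 0.09). In this contrast 0.0305% of all genes tested passed an adjusted p of 0.05 upwards and 0.0254% passed the fold demand too, the values by which the set was chosen. The wild-type response exceeded that of *sgn3* by a log2 difference of 1.18 ± 0.25 for *IGMT2*, 0.75 ± 0.34 for *IGMT4* and 1.29 ± 0.41 for *CYP81F2*.

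No difference passed the test in *sgn3* at the later times, which did not enter the choice of genes. At 120 min *IGMT2* stood at 42.0, 51.8 and 33.8 CPM without and 40.0, 56.8 and 50.9 CPM with CIF2 (log2 fold change 0.22 ± 0.18) and at 480 min at 17.2, 16.9 and 16.7 CPM against 16.9, 16.1 and 19.4 CPM (0.05 ± 0.20), and the groups overlapped both times. *CYP81F2* had 17.1, 18.97 and 8.73 CPM against 21.4, 22.2 and 14.8 CPM at 120 min (0.43 ± 0.26), with every batch slightly up, and 7.88, 4.92 and 6.23 CPM against 7.49, 8.01 and 7.40 CPM at 480 min (0.29 ± 0.31). None of the 10 genes passed the test in *sgn3* at 120 or 480 min by edgeR, and neither did any of the 19668 genes tested (0%). The 95% intervals ran from -0.14 to 0.59 and from -0.35 to 0.45 for *IGMT2*, and from -0.10 to 0.95 and from -0.33 to 0.91 for *CYP81F2*. At an unadjusted p under 0.05 edgeR gave 0 of the 10 at either time, and 578 and 1017 of all genes, and limma-trend and DESeq2 also gave 0 genes after adjustment. The response was lower in *sgn3* than in wild type for 2 of the 10 at 120 min, *IGMT2* (-2.23 ± 0.25, adjusted p = 7.28e-08) and *CYP81F2* (-1.60 ± 0.36, adjusted p = 0.00533), against 2.36% of all genes. At 480 min it was lower for 5 of the 10, against 3.57% of all genes: *IGMT2* (-2.85 ± 0.28, adjusted p = 4.55e-10), *IGMT4* (-2.55 ± 0.49, adjusted p = 0.000378), *CYP81F2* (-1.77 ± 0.42, adjusted p = 0.00594), *CYP81F1* (-0.77 ± 0.17, adjusted p = 0.00227) and *IGMT3* (-0.76 ± 0.18, adjusted p = 0.00548). For *PEN2* and *PEN3* the difference at 480 min did not pass the test (-0.34 ± 0.14 and -0.53 ± 0.20, adjusted p = 0.224 and 0.172). Leaving out batch 1 left *IGMT2* and *CYP81F1* at 480 min and *IGMT2* at 120 min, with *IGMT4* at -2.07 (adjusted p = 0.102), *IGMT3* at -0.78 (adjusted p = 0.102) and *CYP81F2* at -1.56 (adjusted p = 0.262) at 480 min. *CYP81F1* was -0.57 without batch 3 (adjusted p = 0.199), and *CYP81F2* at 120 min was -1.41 without batch 1 and -1.75 without batch 2 (adjusted p = 0.222 and 0.0672).

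Without peptide the levels moved with the time after transfer. In wild type *IGMT4* fell from 33.3, 35.2 and 23.8 CPM at 30 min to 3.30, 3.29 and 3.58 CPM at 480 min (log2 fold change -3.17 ± 0.32, adjusted p = 7.51e-11). *PEN3* fell by 1.57 on the log2 scale (adjusted p = 1.30e-11), from 1627, 1307 and 1096 CPM to 493.5, 453.5 and 400.7 CPM. *IGMT2* (-1.49 ± 0.20), *IGMT1* (-1.23 ± 0.24), *PEN2* (-0.85 ± 0.10) and *IGMT3* (-0.59 ± 0.13) were lower as well, and *CYP81F4* was higher (0.53 ± 0.09, adjusted p = 1.23e-05), with 1996, 2272 and 1512 CPM at 480 min. So 6 of 10 were lower and 1 higher between 30 and 480 min, where 22.8% and 21.7% of all genes were. Between 30 and 120 min the pattern differed. *CYP81F1* (1.01 ± 0.12, adjusted p = 3.31e-09), *CYP81F2* (1.25 ± 0.30, adjusted p = 0.00124) and *IGMT3* (0.46 ± 0.13, adjusted p = 0.00468) rose and *IGMT4* fell (-1.04 ± 0.26, adjusted p = 0.00179), against 13.5% and 16.8% of all genes. The rise of *IGMT3* was 0.39 without batch 1 and 0.43 without batch 2 (adjusted p = 0.0877 and 0.0577). In *cif1 cif2*, 4 of 10 were higher at 120 min (16% of all genes) and at 480 min 5 were lower (16%) and 2 higher (13.9%), with *IGMT4* at -2.57 ± 0.31 and *PEN3* at -1.23 ± 0.15. The 480 min rise of *CYP81F3* did not pass without batch 1 or 2 (0.37 and 0.15, adjusted p = 0.116 and 0.489). It also failed with no low-count filter or with 1 CPM needed in 3 libraries (adjusted p = 0.0642 and 0.0511). The fall of *CYP81F1* did not pass without batch 3 (-0.17, adjusted p = 0.443), nor that of *IGMT2* without batch 2 (-0.60, adjusted p = 0.0953). In *sgn3*, described only since its 30 min libraries had entered the choice, *IGMT4* and *PEN3* differed by -2.76 and -1.17 on the log2 scale. The high values of *CYP81F2* with CIF2 at 120 min thus stood on a higher untreated level than at 30 min.

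**Figure D5:**
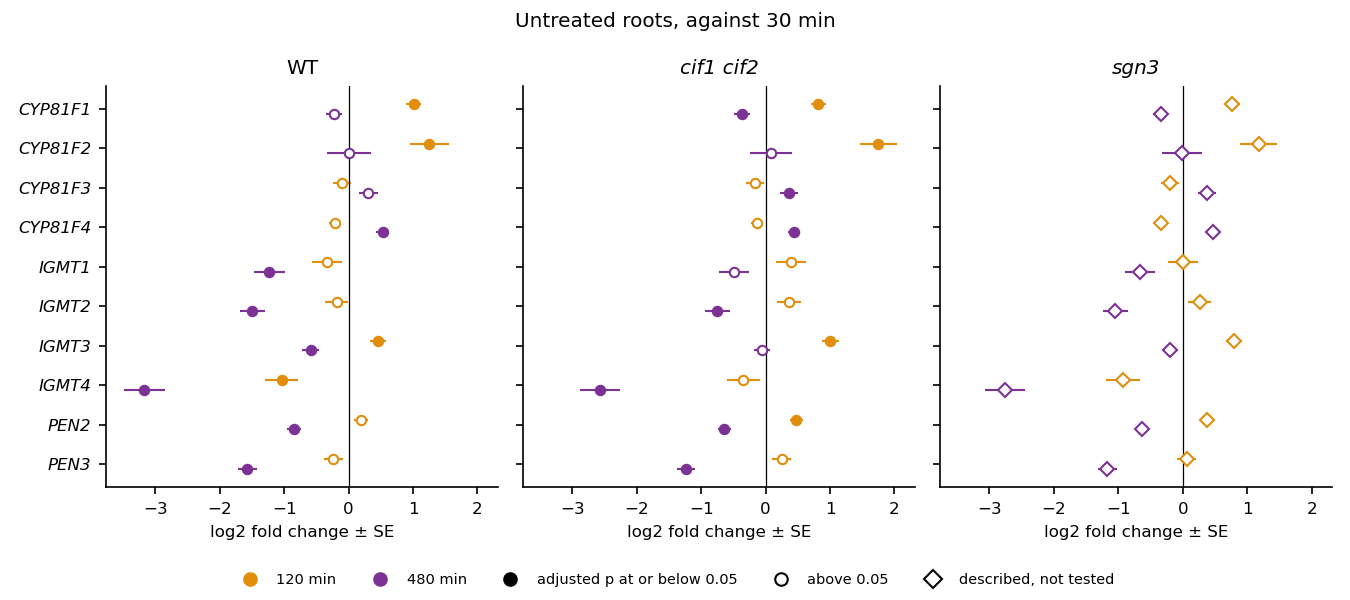
Log2 fold change of untreated roots at 120 and 480 min against 30 min with its standard error for the 10 genes; filled circles passed an adjusted p of 0.05 and diamonds (*sgn3*) were not tested. *IGMT4* stood farthest to the left at 480 min in all 3 genotypes, *CYP81F1* and *CYP81F2* were to the right at 120 min and *CYP81F4* was to the right at 480 min.

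The shape of the response over time was tested as a difference of 2 log2 fold changes. In *cif1 cif2*, between 30 and 120 min it fell for *IGMT1* (-1.28 ± 0.33, adjusted p = 0.0116), *IGMT3* (-1.24 ± 0.18, adjusted p = 4.98e-06), *PEN3* (-1.02 ± 0.20, adjusted p = 0.000857) and *PEN2* (-0.70 ± 0.14, adjusted p = 0.00116), that is for 4 of 10 against 3.62% of all genes. In wild type it fell for *IGMT3* and *PEN2* (2 of 10, against 1.12%). Between 120 and 480 min it rose for *CYP81F1* alone among the 10, by 0.59 ± 0.16 in wild type (adjusted p = 0.0345; 1.87% of all genes) and 0.78 ± 0.16 in *cif1 cif2* (adjusted p = 0.00158; 3.04%). *IGMT2* passed none of these tests, its shifts being 0.13 ± 0.25 and 0.44 ± 0.26 in wild type. The shifts of *IGMT3* and *PEN2* in wild type did not pass without batch 1 (-0.89 and -0.50, adjusted p = 0.0847 and 0.386) or without batch 2 (-0.76 and -0.50, adjusted p = 0.162 and 0.272). In *cif1 cif2* 2 of the 4 falls passed without batch 1, those of *IGMT1* and *PEN3* then being -1.32 and -0.95 (adjusted p = 0.103 and 0.0559), and the wild-type rise of *CYP81F1* did not pass without batch 2 (0.55, adjusted p = 0.227) or batch 3 (0.51, adjusted p = 0.274).

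Without peptide the genotypes were close. None of the 10 genes differed between *cif1 cif2* and wild type at any time or between *sgn3* and wild type at 120 or 480 min by edgeR, where 0.681%, 0.737% and 0.183% and 0.0864% and 0.0915% of all genes did. After adjustment limma-trend and DESeq2 gave 0 of the 10 as well. At an unadjusted p under 0.05 edgeR gave 1, 3 and 1 of the 10 in *cif1 cif2* at 30, 120 and 480 min and 0 and 1 in *sgn3* at 120 and 480 min. The estimated differences lay between -0.37 and 0.52 on the log2 scale, the highest being that of *CYP81F2* in *cif1 cif2* at 120 min (0.52 ± 0.26, adjusted p = 0.280).

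Other genes of the pathway were counted in lists, to be read beside the shares of all genes in wild type, of which 5.78% rose and 2.01% fell at 30 min, 6.3% rose and 4.28% fell at 120 min, and 6.88% rose and 3.23% fell at 480 min. Of 9 genes of indole glucosinolate core synthesis, 3 rose in wild type at 30 min, 4 at 120 min and 0 at 480 min, with *GGP1* at 0.51, 0.66 and 0.00 on the log2 scale and *SOT16*, a sulfotransferase of the last step, at 0.26, 0.44 and -0.07. Among 6 MYB and MYC regulators *MYB51* rose at all 3 times (1.58 ± 0.17, 1.22 ± 0.17 and 1.15 ± 0.21, adjusted p = 2.29e-09, 1.62e-06 and 5.69e-05), while *MYB34* and *MYC2* fell at 30 min (-0.47 ± 0.09 and -0.35 ± 0.09, adjusted p = 0.000217 and 0.0111). *MYC2* was also lower at 480 min (-0.33 ± 0.09, adjusted p = 0.0179), when *MYB34* did not pass (-0.10 ± 0.09, adjusted p = 0.595). Of *MPK3*, *MPK6*, *WRKY33* and *ERF6*, which act upstream of indole glucosinolate genes in defence, 3 rose at 30 min, *ERF6* by 0.94 ± 0.12, *WRKY33* by 0.69 ± 0.11 and *MPK3* by 0.66 ± 0.11, and *WRKY33* was still higher at 480 min (0.43 ± 0.12, adjusted p = 0.0107). Of 9 other breakdown genes 2 rose at 30 and at 120 min and 0 passed at 480 min; *PCS1*, a phytochelatin synthase that acts with PEN2 and PEN3 in pathogen defence, rose by 1.20 ± 0.08 at 30 min (adjusted p = 4.35e-14) and *GSTU13* by 0.27 ± 0.05. *IGMT5*, a more distant methyltransferase of the pathway, did not rise and was lower at 120 min (-0.33 ± 0.11, adjusted p = 0.0421). Of 4 camalexin and related genes tested, 0, 0 and 2 rose at the 3 times, *PAD3* by 0.82 ± 0.16 and *CYP71A12* by 1.06 ± 0.35 at 480 min, and none of 3 glucosinolate transporters or of 4 aliphatic glucosinolate synthesis genes tested passed in wild type. At 480 min *FOX1* had a log2 fold change of 1.45 ± 0.60 (adjusted p = 0.137) and *TGG5*, a root myrosinase, one of -0.25 ± 0.12 (adjusted p = 0.235). The median log2 fold changes of these lists at 30 min ran from -0.11 to 0.67, beside 1.06 for the 10 genes. The 10 include *IGMT2*, *IGMT4* and *CYP81F2*, which were chosen for a response at 30 min in *sgn3*. The medians are therefore a description and no comparison of sets chosen alike.

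Over the 18 group means of log2 CPM with the batch removed, *CYP81F3* and *CYP81F4* ran opposite to the other members. *CYP81F1* had r of 0.30 to *IGMT1*, 0.31 to *IGMT4*, 0.41 to *PEN3* and 0.47 to *IGMT2*. Its r was 0.54 to *PEN2*, 0.61 to *IGMT3* and to *CYP81F2*, -0.62 to *CYP81F3* and -0.65 to *CYP81F4*. Pearson's r across the 18 groups was 0.92 between *IGMT2* and *CYP81F2*, 0.87 between *IGMT2* and *IGMT3*, 0.95 between *IGMT1* and *IGMT4* and 0.97 between *PEN2* and *PEN3*, and it was 0.90 between *CYP81F3* and *CYP81F4*, which had r from -0.89 to -0.47 with the *IGMT* genes, *CYP81F2*, *PEN2* and *PEN3*. Groups share genotypes, times and batches, so these values describe the 18 groups only. Outside the set, the genes most like *IGMT2* were AT1G47130 (r = 0.99), AT1G51913 (0.96) and *PROPEP2* (0.96), and those most like *CYP81F2* were *DTX1* (0.96), AT1G51820 (0.96) and *DLAH* (0.95). *IGMT1* was closest to AT5G65600 (0.97), *LPAT4* (0.97) and AT4G20830 (0.97), *CYP81F4* to AT5G17010 (0.97), *TT5* (0.97) and *DBP1* (0.97), *PEN2* to AT3G13430 (0.99), AT5G28630 (0.99) and *CK1* (0.99), and *PEN3* to AT1G78830 (0.99), AT5G55100 (0.99) and AT3G52748 (0.99).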

How the data were processed

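Raw counts per gene, 1 table per library, were deposited by the authors for all 54 libraries. Per the methods and the submitters' processing notes, single reads of stranded mRNA libraries were trimmed with Cutadapt 1.8, cleared of ribosomal RNA, aligned to TAIR10 with STAR 2.5.3a and counted with HTSeq 0.9.1. The strand setting is not given in the sources used here. The 5 summary lines of each table were left out (4.72% to 5.15% of reads, with 3.61% to 3.96% aligned to more than 1 place).

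The 19668 of 34262 genes that reached 1 CPM in any library were fitted in R 4.3.3 with edgeR 4.0.16 (TMM scaling, quasi-likelihood F test) on the 18 groups with batch as a block, all 54 libraries together. P-values were adjusted by Benjamini and Hochberg over all genes within each of 31 comparisons, with a threshold of 0.05, a log2 fold change of at least 1 where named, and 26 of the comparisons tested for the 10 genes. The study used limma-trend with batch, and limma 3.58.1 and DESeq2 1.42.0 were run as alternatives. Batch numbers in the titles pair the samples: deviations from group means correlated at a mean r of 0.27 over 459 pairs of the same batch. The lowest of these was -0.196, and 85.8% were above 0.1. The mean of -0.135 over 918 pairs of different batches largely follows from the first mean, since deviations cancel out within a group. No replicates agreed within counting noise (lowest chi-square per gene 5.3). CPM values are scaled by TMM, apart from those of *SGN3* and of the 1 CPM filter, which are scaled by the counts in genes alone. The labels do not say whether the libraries of a group came from separate plants. P-values measure the spread of libraries within groups that is left after shifts common to a batch are removed.

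The 10 genes and all gene lists were chosen with earlier results of these data known. All 10 are named; of each pathway list the genes (up to 3) with the smallest p in wild type at 30 or 480 min are named. The fit was tested on counts simulated for wild type at 30 min with and without CIF2. The simulation held no batch effect, and the other comparisons were not tested in this way. Promoters are the 250 bases before the RefSeq start.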

Additional observations from a re-analysis of the deposited data

Results flagged for a closer look

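The results below differed between genotypes or times by a test of the difference itself, edgeR's quasi-likelihood test with Benjamini-Hochberg adjustment, and all moved the same way in 3 of 3 batches. The CIF2 response was lower in *sgn3* than in wild type on the log2 scale by -2.23 for *IGMT2* (adjusted p = 7.28e-08) and -1.60 for *CYP81F2* (adjusted p = 0.00533) at 120 min. At 480 min the differences were -2.85 for *IGMT2* (adjusted p = 4.55e-10), -2.55 for *IGMT4* (adjusted p = 0.000378), -1.77 for *CYP81F2* (adjusted p = 0.00594), -0.77 for *CYP81F1* (adjusted p = 0.00227) and -0.76 for *IGMT3* (adjusted p = 0.00548).

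Between 30 and 120 min the response changed in wild type by -0.89 for *IGMT3* (adjusted p = 0.00237) and -0.54 for *PEN2* (adjusted p = 0.0299). In *cif1 cif2* it changed by -1.28 for *IGMT1* (adjusted p = 0.0116), -1.24 for *IGMT3* (adjusted p = 4.98e-06), -0.70 for *PEN2* (adjusted p = 0.00116) and -1.02 for *PEN3* (adjusted p = 0.000857). Between 120 and 480 min the response of *CYP81F1* changed by 0.59 in wild type (adjusted p = 0.0345) and 0.78 in *cif1 cif2* (adjusted p = 0.00158).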

How the results depend on the processing

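Counts of the 10 genes past an adjusted p of 0.05 stayed within 1.5 times under DESeq2 size factors and both other low-count filters. The same held under limma-trend, DESeq2 and without the 3 libraries of conflicting labels. That last fit held no comparison that used *cif1 cif2* with CIF2 at 480 min. It was therefore no check of the values that rest on those labels. Without the replicate block, that is with batch pairing left out, the counts were 5 (8 with it) for CIF2 in wild type at 480 min, 1 (2) and 2 (5) for the lower response of *sgn3* at 120 and 480 min, 4 (7) for untreated *cif1 cif2* at 480 against 30 min, 1 (2) and 0 (1) for the 2 wild-type shifts over time and 0 (1) for the later *cif1 cif2* shift. With only the libraries compared in the fit they were 1 (0) for untreated *cif1 cif2* against wild type at 120 min, 7 (4) for untreated wild type at 120 against 30 min and 4 (7) for untreated *cif1 cif2* at 480 against 30 min. The cause was not tested. Leaving out 1 batch gave 1 to 2 and 2 to 4 for the lower response of *sgn3* at 120 and 480 min, 0 to 2 and 0 to 1 for the wild-type shifts and 2 to 4 and 1 to 2 for those of *cif1 cif2*, while CIF2 at 30 min stayed at 7 in both genotypes. With the 4 *IGMT* genes summed, the untreated 120 against 30 min value in wild type was 0.10 (adjusted p = 0.700), where *IGMT4* alone fell and *IGMT3* alone rose. The lower response of *sgn3* at 120 min was then -0.65 (adjusted p = 0.134).

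Leaving out 1 batch took away calls far from the threshold as well as near it: the lower response of *sgn3* at 480 min went from an adjusted p of 0.000378 to 0.102 for *IGMT4* without batch 1 and from 0.00227 to 0.199 for *CYP81F1* without batch 3, and the *PEN3* shift in *cif1 cif2* from 0.000857 to 0.0559 without batch 1. Values of *IGMT2* and *IGMT3* rest on positions that tell them apart.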
